A study of Arabidopsis thaliana with 12 samples.

Results

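In 4-day-old Arabidopsis roots, 33 genes had a higher mean than wild type in each of 3 transgenic lines that carry an ERF transcription factor or its repressor fusion. They were chosen from the deposited table of normalized counts, which lists 37884 genes. The WT mean of a member was 50 or more normalized counts, and it exceeded WT by 0.7 or more on the log2 scale in every one of the lines, computed as log2(mean + 1). Of the 20834 genes that reached the WT minimum, 7.42% passed the threshold in ERF115-SRDX, 2.28% in ERF115OX, 2.2% in ERF114OX, and 0.158% passed it in all 3. Those differences chose the genes, so the values against wild type are given as a description without a test. The tests below compare the transgenic lines with each other, a contrast that the rule did not set a threshold on. They rest on the same line means as the rule, so counts of members called in them, beside those of all genes, are a description and not independent of the choice. The members are 32 protein-coding genes and 1 noncoding RNA gene, spread over all nuclear chromosomes.

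The study measured polyadenylated RNA by sequencing in 12 libraries, 3 for each of 4 genotypes, to look for genes downstream of ERF115 and ERF114. ERF115-SRDX carries 35S:ERF115-SRDX, ERF115OX carries 35S:ERF115, ERF114OX carries 35S:ERF114, and WT is Col-0 without a transgene. The 35S promoter drives expression in most plant cells and not only where the native gene is active, and the labels name neither the number of independent transformants behind a line nor separate plantings behind the replicate numbers. The p-values thus speak only of the scatter among these libraries, part of which can be technical. In the genotype field, ERF114 libraries are also called ERF115OX; grouping went by the titles.

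ERF115 and ERF114 are related factors of the AP2/ERF family, known in roots for division and regeneration of cells next to damaged or dying neighbours, in part through the gene of the peptide hormone phytosulfokine PSK5. Overexpression raises the amount of the activator, while the SRDX tail is a short repression motif that turns an activator into a dominant repressor. In the simplest case, a gene that such a factor activates directly would be raised by the activator and lowered by the fusion. The members were chosen for the same sign in both, and whether any of them is a direct target was not tested.

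The libraries held between 47242114 and 48343410 counted reads, and 3 reads correspond to 2.90 to 3.18 normalized counts. At the ERF115 locus, AT5G07310, reads averaged 85592 ± 2823 normalized counts in ERF115-SRDX, 36657 ± 1881 in ERF115OX and 6.23 ± 3.95 in ERF114OX, against 4.86, 23.4 and 561 in the 3 WT libraries (SD, n = 3). WT library 3 stood apart from the other WT libraries at this locus, and without it the rule found 35 genes, 28 of them among the 33. AT5G61890, the ERF114 locus, averaged 46518 ± 1835 normalized counts in ERF114OX, against 19.6 ± 13.4 in WT (SD, n = 3 each), with 12.5 to 24.2 in ERF115-SRDX and 2.01 to 104 in ERF115OX. Of 19 photosynthetic genes, markers of shoot tissue, the summed normalized counts were 12334 to 157532 in ERF115-SRDX, 354391 to 468048 in ERF115OX and 143874 to 490436 in ERF114OX, against 555700 to 1163130 in WT. None of the 19 was at 0 in any library. The lowest sum among the ERF114OX libraries was in library 1 and the highest among the ERF115-SRDX libraries was in library 2. The part of this shoot signal in the values of the members was not tested. Without these 2 libraries the rule again found 33 genes, 32 of them the same. That omission cannot show the part of the shoot signal. The remaining transgenic libraries still summed to at most 490436, against at least 555700 in WT. In bulk RNA, a larger share of the cells that express a gene and more RNA per cell cannot be told apart.

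Secreted defence proteins were the most frequent annotated kind among the members. The class of pathogenesis-related, chitinase, germin, defensin and thaumatin proteins supplied 5 of the 33, out of 64 genes of that class with the WT minimum, or 7.81% of them, beside 0.158% of all genes with that minimum. They are 3 defensin-like genes, which encode short secreted peptides rich in cysteine, and 2 chitinases, enzymes that cut the chitin of fungal cell walls. The rest of the class moved in both directions. Of its 78 genes tested, leaving out the members, 22 were called higher and 25 lower than WT in ERF115-SRDX (limma). The counts were 21 and 9 in ERF115OX, and 18 and 15 in ERF114OX. The defensin-like genes lie in one stretch of chromosome 4: AT4G22212 and AT4G22214 are next to each other on the same strand, 159 bases apart, and AT4G22217 follows 2307 bases farther on. The chitinases AT2G43590 and AT2G43570 lie on chromosome 2 with a single gene between them, AT2G43580.

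The bases just upstream of 4 of these genes are shown because they are among the members that sit together. Each line gives the 250 bases that end before the annotated start of the gene, read 5′ to 3′ along its strand from the RefSeq genome TAIR10.1. The authors' build is not given in the sources used here, but all 37884 gene identifiers of the table match locus tags of this annotation. Capitals mark TTGAC, the core of the W-box that WRKY factors bind, or its reverse complement GTCAA, together with any overlapping TGACG, the core that TGA factors bind.
AT4G22212, chr4:11753592-11753841, plus strand: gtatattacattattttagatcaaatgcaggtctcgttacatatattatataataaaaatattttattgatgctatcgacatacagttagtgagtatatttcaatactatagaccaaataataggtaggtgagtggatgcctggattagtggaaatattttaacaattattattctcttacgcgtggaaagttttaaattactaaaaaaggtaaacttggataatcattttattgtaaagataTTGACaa
AT4G22217, chr4:11758328-11758577, plus strand: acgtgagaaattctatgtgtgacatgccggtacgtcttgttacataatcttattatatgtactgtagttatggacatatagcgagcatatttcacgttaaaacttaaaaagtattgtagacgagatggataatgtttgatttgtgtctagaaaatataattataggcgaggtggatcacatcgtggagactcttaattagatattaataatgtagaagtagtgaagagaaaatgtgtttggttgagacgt
AT2G43570, chr2:18077518-18077767, minus strand: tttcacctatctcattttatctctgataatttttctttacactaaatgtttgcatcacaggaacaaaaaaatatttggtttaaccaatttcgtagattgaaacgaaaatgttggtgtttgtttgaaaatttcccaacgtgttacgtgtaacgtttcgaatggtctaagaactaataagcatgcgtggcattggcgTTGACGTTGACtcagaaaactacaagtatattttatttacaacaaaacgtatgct
AT2G43590, chr2:18082777-18083026, minus strand: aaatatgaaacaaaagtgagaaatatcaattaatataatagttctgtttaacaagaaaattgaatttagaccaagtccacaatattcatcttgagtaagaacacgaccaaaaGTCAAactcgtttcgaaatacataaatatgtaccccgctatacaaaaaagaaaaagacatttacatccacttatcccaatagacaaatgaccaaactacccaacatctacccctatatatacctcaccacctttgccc
Among the 250-base windows of the 33 members, 20 held TTGAC on either strand, or 60.6%, against 45.0% of the 20833 windows of genes with the WT minimum. TGACG was in 7 member windows, or 21.2%, against 19.3% of all such windows. CCGAC, the core bound by dehydration-responsive ERF relatives, was in 3 member windows, or 9.09%, against 12.8%. CACGTG, the G-box, was in 1, or 3.03%, against 6.96%. GCCGCC, the core of the GCC-box that many ERF factors bind, was in none of the 33, and in 2.06% of the windows of genes with the WT minimum. These are matches of letters in one short window, both strands searched, and not binding sites.

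AT4G22214 was the member farthest from WT when each member is judged by the line in which it differs least. Its normalized counts were 457, 357 and 409 in ERF115-SRDX, 448, 455 and 377 in ERF115OX and 357, 514 and 542 in ERF114OX, against 88.5, 121 and 125 in WT. All 9 transgenic libraries lay above all WT libraries and the lines overlapped each other. AT4G22217 had 193, 189 and 206 normalized counts in ERF115-SRDX, 183, 185 and 181 in ERF115OX and 165, 195 and 198 in ERF114OX, against 80.7, 64.4 and 63.7 in WT. Its means were 2.82 times WT in ERF115-SRDX, 2.63 in ERF115OX and 2.67 in ERF114OX, and the ERF115-SRDX libraries lay just above those of ERF115OX, while ERF114OX overlapped both. AT4G22212 had 5423, 6007 and 5559.8 normalized counts in ERF115-SRDX, 2873, 3537 and 3107 in ERF115OX and 2781, 3519 and 3507 in ERF114OX, against 1905, 1889 and 1745 in WT. The 3 ERF115-SRDX libraries were above all overexpressor libraries, which in turn were above WT.

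The neighbours of the trio were not members. LCR85, another small cysteine-rich peptide gene just before AT4G22212, averaged 8.10 normalized counts in ERF115-SRDX, 0.68 in ERF115OX and 0 in ERF114OX, against 0.648 in WT, below the limit for testing. ISU1 (AT4G22220), 4 bases beyond AT4G22217 on the opposite strand, averaged 4426 in ERF115-SRDX, 4730 in ERF115OX and 4320 in ERF114OX, against 3901 in WT. It was called higher than WT in ERF115-SRDX, by 0.18 log2 (adjusted p = 0.0334), and in ERF115OX, by 0.27 (adjusted p = 0.00757, limma). In ERF114OX it was not called, at 0.15 (adjusted p = 0.0957, limma). AT4G22230, a defensin-like gene beyond the trio, averaged 298 ± 45.7 in ERF115-SRDX, 269 ± 27.3 in ERF115OX and 273 ± 25.0 in ERF114OX, against 284 ± 43.0 in WT (SD, n = 3 each). Its log2 differences from WT were 0.07 in ERF115-SRDX, -0.07 in ERF115OX and -0.05 in ERF114OX and were not called, with adjusted p from 0.707 to 0.818 (limma over 23375 genes, Benjamini-Hochberg). The 3 member transcripts are 75.3% to 80.9% identical to each other over stretches of 94 to 178 bases only, and how the authors counted reads with several matches is not given in the sources used here.

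The chitinase AT2G43590 was the most abundant member in WT, also per kilobase of transcript, at 4261 normalized counts per kilobase. Its libraries held 25096, 24368 and 22249 normalized counts in ERF115-SRDX, 8987, 10208 and 10632 in ERF115OX and 8014, 11595 and 11325 in ERF114OX, against 4847, 5144 and 4199 in WT. No group overlapped WT, and ERF115-SRDX stood above both overexpressors. AT2G43570, named CHI in the annotation, had 11459, 11932 and 9572 normalized counts in ERF115-SRDX, 2226, 2748 and 3126 in ERF115OX and 2938, 2933 and 2807 in ERF114OX, against 1332, 1598 and 1430.2 in WT. It followed the same order as its neighbour, with ERF115-SRDX 7.56 times WT. The chitinase between them, AT2G43580, averaged 369 ± 88.3 in ERF115-SRDX, 56.3 ± 4.91 in ERF115OX and 22.5 ± 2.86 in ERF114OX, against 28.5 ± 1.87 in WT (SD, n = 3 each), below the WT minimum in WT and lower than WT in its ERF114OX mean, so that it is not a member. It was called higher than WT in ERF115-SRDX, by 3.62 log2 (adjusted p = 1.79e-08), and in ERF115OX, by 0.96 (adjusted p = 0.00388), and was not called in ERF114OX, at -0.33 (adjusted p = 0.218; limma). AT2G43590 and AT2G43580 are 81.9% identical over 821 bases and the 2 members 64.2% over 756 bases. AT2G43610, a further chitinase gene of this stretch, averaged 8381 ± 274 normalized counts in ERF115-SRDX, 16783 ± 1561 in ERF115OX and 18511 ± 1515 in ERF114OX, against 14146 ± 1843 in WT (SD, n = 3 each). In ERF115-SRDX it fell by 0.75 on the log2 scale (adjusted p = 2.42e-05), in ERF114OX it was called higher than WT by 0.39 (adjusted p = 0.00649), and in ERF115OX it was not called, at 0.25 (adjusted p = 0.0588; limma).

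**Figure D1:**
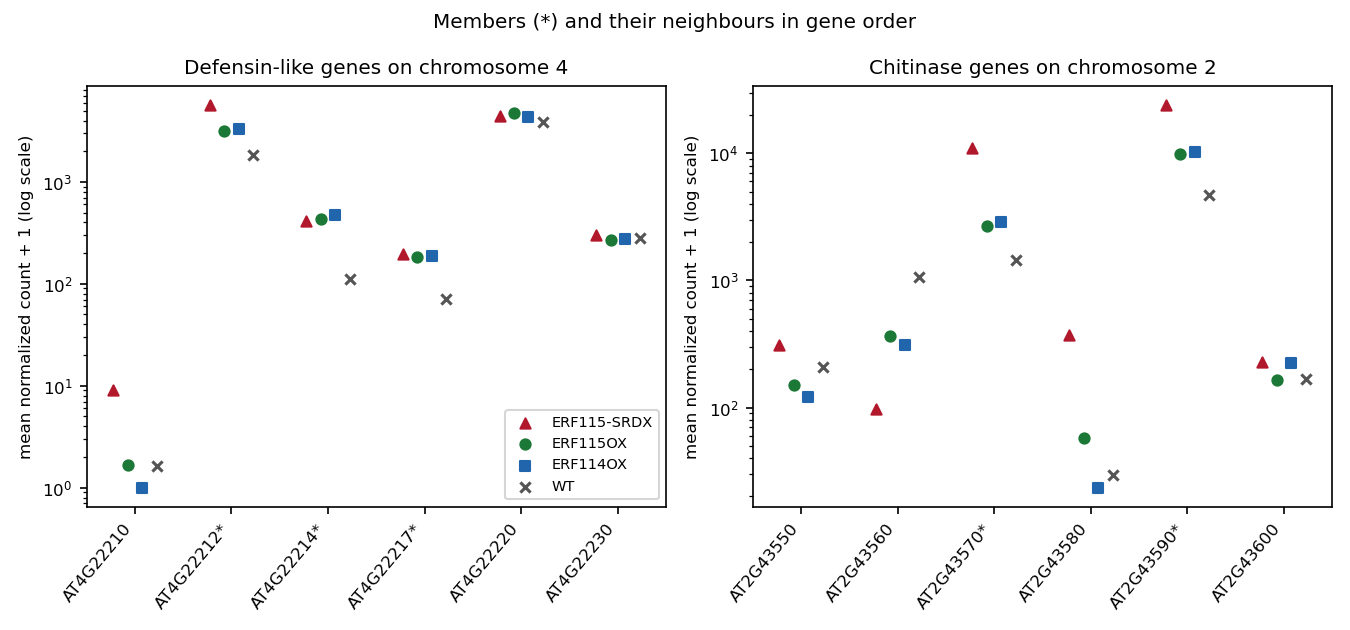
Mean normalized count plus 1 (log axis, n = 3 libraries a group) of the members, marked with an asterisk, and of protein-coding neighbours in gene order, for the defensin-like genes on the left and the chitinases on the right; 2 noncoding genes between AT4G22214 and AT4G22217, with means of at most 0.353, are not drawn. The 3 asterisked defensin-like genes lie above WT in every line while AT4G22230 does not, and of the chitinases the 2 members lie above WT in every line.

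Across the genome the members were mostly scattered. In all, 5 of 33 had another member within 3 genes, these being the ones just described, and 2 were immediately next to one. Of 45 tested genes that flank a member and are not members themselves, 12 were called higher and 11 lower than WT in ERF115-SRDX, 9 and 6 in ERF115OX, and 13 and 7 in ERF114OX (limma, adjusted p under 0.05). Over all 23375 genes tested, 23.4% were called higher and 26.6% lower in ERF115-SRDX, 16.4% and 15.7% in ERF115OX, and 17.5% and 19.6% in ERF114OX. 6 members overlap a neighbouring gene in the annotation (AT2G45360, AT5G65600, AT2G40130, AT2G38790, AT3G18250 and AT5G25450). The libraries mark strand, since second-strand cDNA was made with dUTP and removed, but whether reads were counted by strand is not given in the sources used here. AT5G65600 and its neighbour AT5G65609 overlap on the same strand, so strand would not separate their reads. AT5G65609 averaged 187 normalized counts in ERF115-SRDX, 84.3 in ERF115OX and 142 in ERF114OX, against 97.1 in WT. A part of shared reads in the values of AT5G65600 was not tested.

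Over all members, the median log2 difference from WT was 1.48 in ERF115-SRDX (0.71 to 5.30), 1.04 in ERF115OX (0.71 to 1.93) and 1.12 in ERF114OX (0.72 to 2.34). More than double the WT mean was reached by 24 members in ERF115-SRDX, 18 in ERF115OX, 22 in ERF114OX. All 3 libraries of the line lay above all 3 of WT for 32 members in ERF115-SRDX and all 33 in each overexpressor, where 29.5% (ERF115-SRDX), 23.2% (ERF115OX) and 25.5% (ERF114OX) of genes with the WT minimum did so; the rule makes this near certain and nothing is read from it. The exception was TOM20-1, a receptor for protein import into mitochondria, which had 93.7, 66.8 and 104 normalized counts in ERF115-SRDX, against 40.8, 71.2 and 48.8 in WT. The members together took 0.168% to 0.178% of all normalized counts in ERF115-SRDX, 0.0667% to 0.0750% in ERF115OX and 0.0853% to 0.0860% in ERF114OX, against 0.0341% to 0.0388% in WT. The line with the largest difference was ERF115-SRDX for 19 members, ERF114OX for 9 and ERF115OX for 5. The 3 differences of a gene lay within 0.3 of each other for 9 members and spanned more than 1 for 15.

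**Figure D2:**
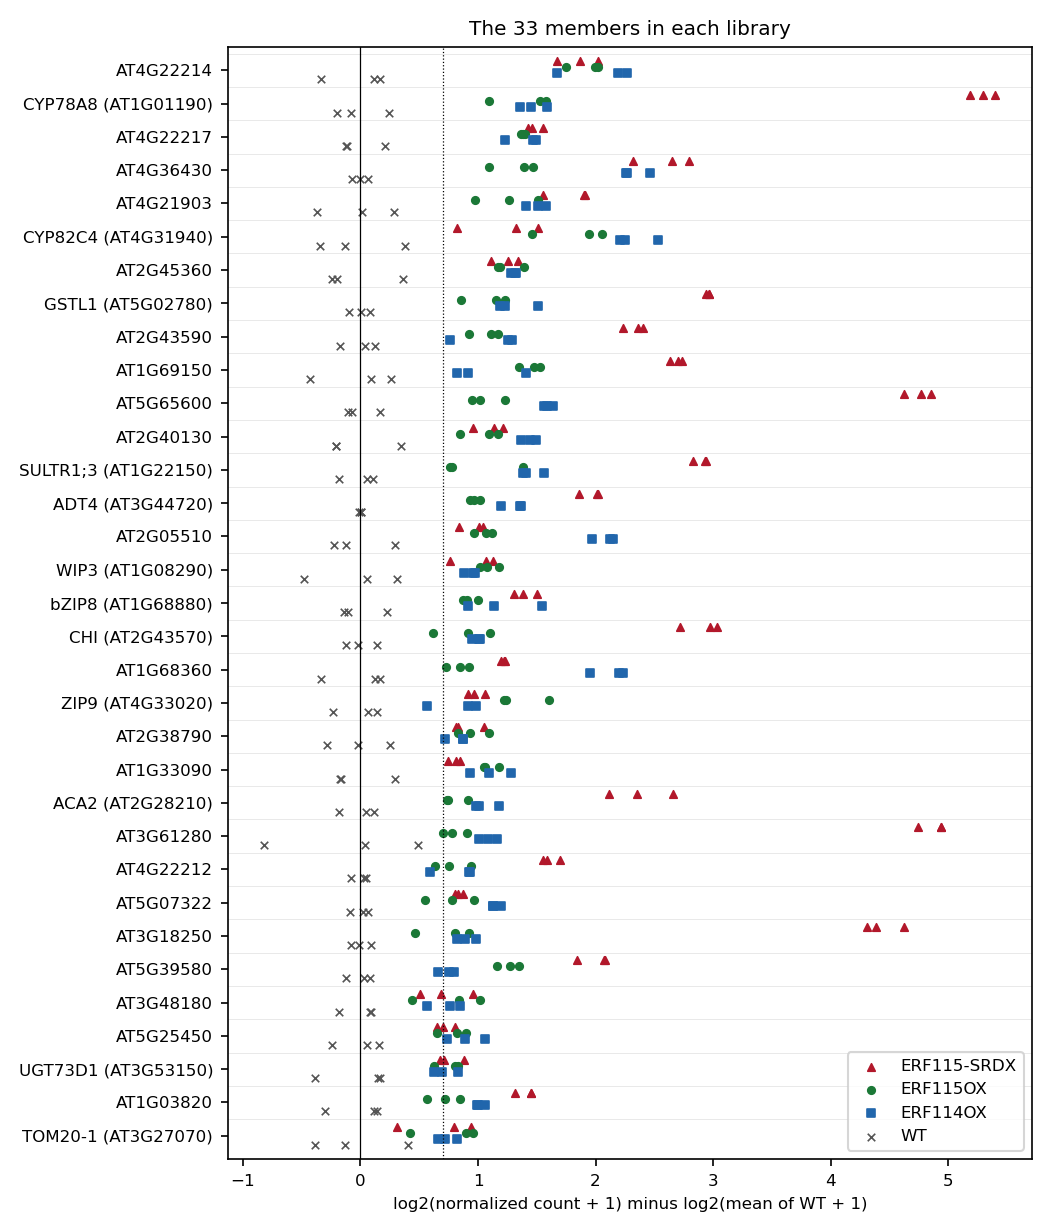
Each point is one library: log2(normalized count + 1) minus log2(mean of WT + 1) on the horizontal axis, for the 33 members from the largest smallest difference at the top, in ERF115-SRDX, ERF115OX, ERF114OX and WT (3 libraries each), with the threshold of 0.7 dotted. The overexpressors lie close together in most rows, while ERF115-SRDX reaches beyond 4 for CYP78A8, AT5G65600, AT3G61280 and AT3G18250.

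The lines were then compared with each other. Of the 33 members, 18 were called higher in ERF115-SRDX than in ERF115OX and 1 lower, or 54.5% and 3.03%, where 26.4% of all genes tested were called higher and 29.6% lower (limma, Benjamini-Hochberg adjusted p under 0.05). Against ERF114OX, 14 members were higher in ERF115-SRDX and 4 lower, or 42.4% and 12.1%, beside 26.0% and 30.0% of all genes tested. Between the overexpressors, 1 member was higher in ERF115OX than in ERF114OX and 6 were lower, or 3.03% and 18.2%, beside 4.77% and 2.13%. The members' median log2 difference was 0.47 for ERF115-SRDX minus ERF115OX, 0.20 for ERF115-SRDX minus ERF114OX and -0.12 for ERF115OX minus ERF114OX, beside -0.03, -0.05 and 0.00 over all genes tested. The 3 comparisons share libraries and are not independent, and a floor at 0.7 in every line removes genes that are near WT in any line. All 14 members called higher in ERF115-SRDX than in ERF114OX were also called higher than in ERF115OX. The like share over all genes tested was not computed, so nothing is read from this overlap.

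**Figure D3:**
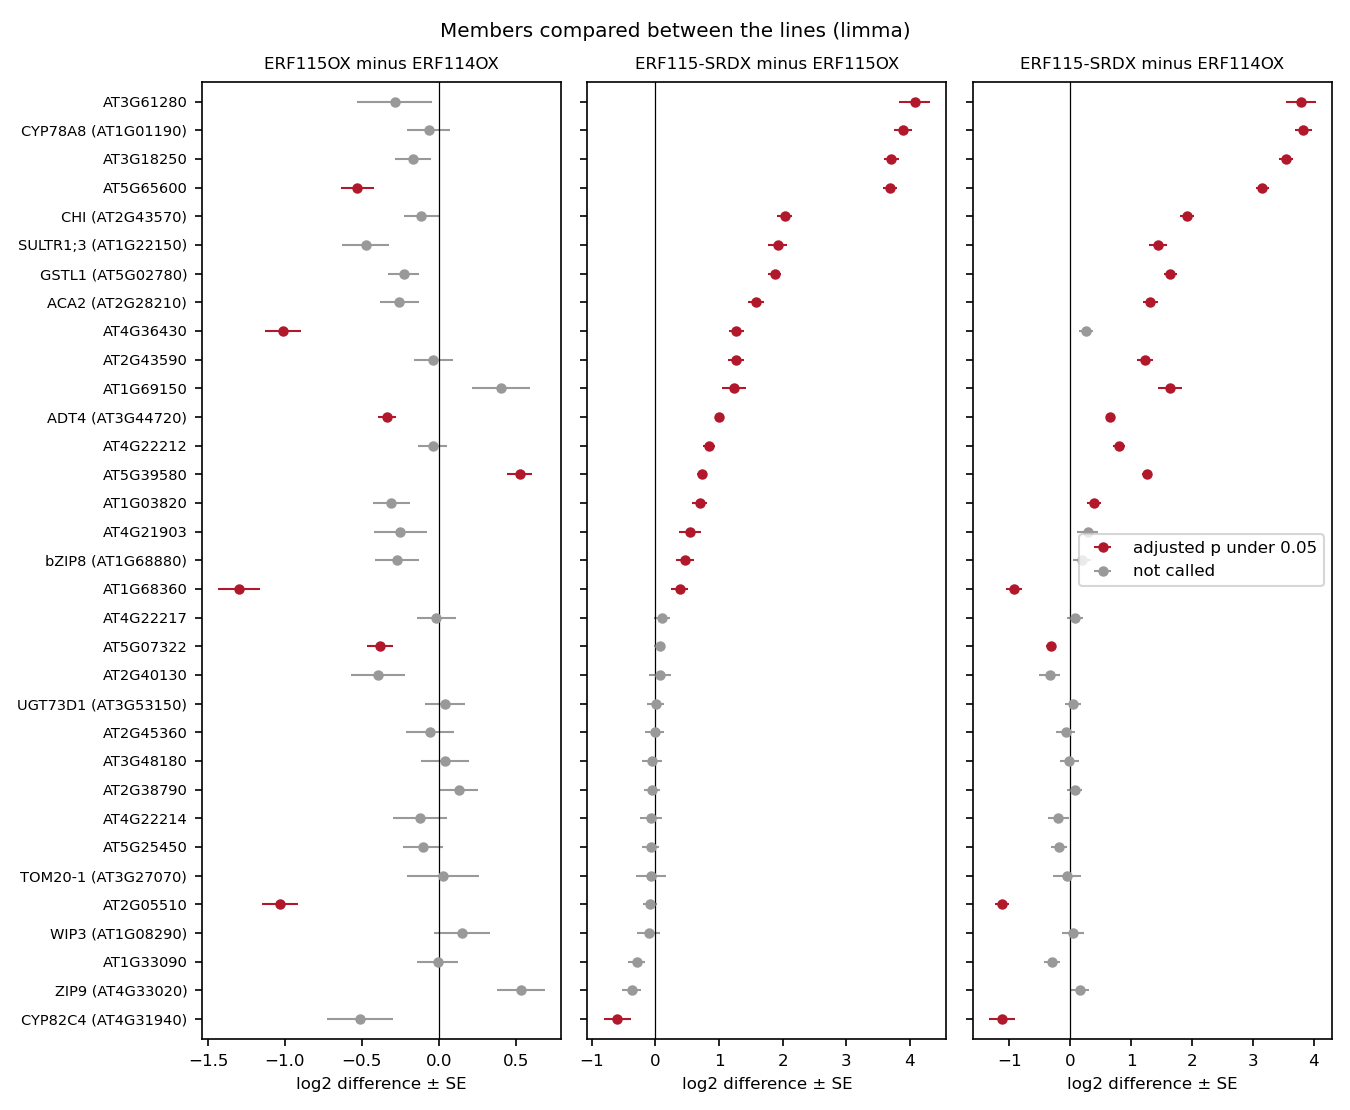
log2 difference ± SE of each member between the lines, from left to right ERF115OX minus ERF114OX, ERF115-SRDX minus ERF115OX and ERF115-SRDX minus ERF114OX (limma, n = 3 libraries a group; filled red points have an adjusted p under 0.05, grey points do not). 18 members lie to the right with a call in the middle panel and 14 in the right panel, and CYP82C4 lies to the left with a call in both.

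4 members differed from the overexpressors by more than 3 on the log2 scale. CYP78A8 (AT1G01190) belongs to a cytochrome P450 family whose members affect organ size. Its normalized counts were 6683, 7179 and 6188 in ERF115-SRDX, 361, 507 and 488 in ERF115OX and 433, 510.4 and 464 in ERF114OX, against 147, 200.0 and 159 in WT. The ERF115-SRDX libraries formed a group of their own, 39.6 times WT, while the overexpressors overlapped each other above WT. The log2 difference of ERF115-SRDX from ERF115OX was 3.90 ± 0.14 (SE, adjusted p = 2.71e-10, limma), and from ERF114OX 3.83 ± 0.14 (adjusted p = 2.7e-10).

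AT5G65600, annotated as a lectin protein kinase, is a member of the L-type lectin receptor kinases, which sit in the plasma membrane. It had 2519, 2379 and 2149 normalized counts in ERF115-SRDX, 167, 175 and 204 in ERF115OX and 257, 260.5 and 269.7 in ERF114OX, against 81.7, 80.0 and 96.6 in WT. None of the 4 groups overlapped. ERF115-SRDX exceeded ERF115OX by 3.69 ± 0.11 log2 (SE, adjusted p = 5.16e-11) and ERF114OX by 3.16 ± 0.11 (adjusted p = 1.61e-10), and ERF115OX was lower than ERF114OX by 0.53 on the log2 scale (adjusted p = 0.0119; limma). The last call was lost without ERF115OX replicate 2 and when only the groups compared were fitted, with an adjusted p of at most 0.0564.

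AT3G61280 is annotated as a DUF821 protein related to rumi O-glucosyltransferases. Its normalized counts were 1633, 1630.1 and 1424 in ERF115-SRDX, 98.7, 90.5 and 85.8 in ERF115OX and 118, 106 and 112 in ERF114OX, against 29.2, 53.7 and 73.7 in WT. WT was spread over more than a doubling, and all transgenic libraries lay above it. The log2 difference of ERF115-SRDX was 4.08 ± 0.24 from ERF115OX (SE, adjusted p = 2.51e-08) and 3.79 ± 0.24 from ERF114OX (adjusted p = 4.96e-08; limma). Leaving out WT replicate 1 or 3 ended its membership, through the WT minimum or the threshold.

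AT3G18250, a short transcript annotated as a putative membrane lipoprotein, had 3944, 4653 and 3745 normalized counts in ERF115-SRDX, 259.9, 357 and 329 in ERF115OX and 333, 372 and 349.6 in ERF114OX, against 187, 200.0 and 177 in WT. The overexpressors overlapped each other at 1.68 and 1.87 times WT, in ERF115OX and ERF114OX. ERF115-SRDX was higher than ERF115OX by 3.71 ± 0.12 log2 (SE, adjusted p = 1.12e-10) and than ERF114OX by 3.54 ± 0.12 (adjusted p = 1.44e-10; limma).

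**Figure D4:**
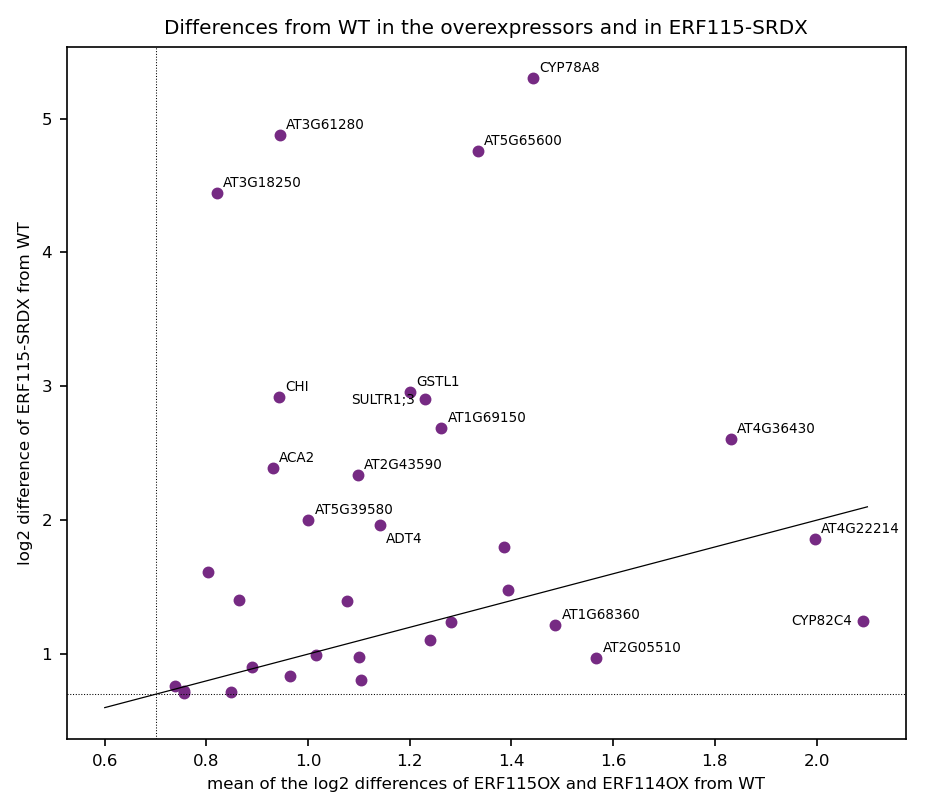
Each of the 33 members by the mean of its log2 differences from WT in ERF115OX and ERF114OX (horizontal) and by its log2 difference from WT in ERF115-SRDX (vertical), from group means of 3 libraries, with the threshold of 0.7 dotted and equal values on the solid line. Most members with a vertical value above 2 have a horizontal value below 1.5, and AT4G22214, CYP82C4, AT2G05510 and AT1G68360 lie below the line on the right.

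The chitinases and a set of enzymes and a transporter followed at smaller sizes. CHI was higher in ERF115-SRDX than in ERF115OX by 2.03 ± 0.11 log2 (SE, adjusted p = 1.46e-08) and than in ERF114OX by 1.92 ± 0.11 (adjusted p = 2.48e-08; limma). For AT2G43590 the differences were 1.27 ± 0.13 and 1.23 ± 0.13, and for the defensin-like AT4G22212 0.84 ± 0.10 and 0.80 ± 0.10, with all 4 adjusted p at or below 1.51e-05. The other defensin-like genes of the stretch were not called, AT4G22214 at -0.07 ± 0.18 and -0.19 ± 0.18 and AT4G22217 at 0.10 ± 0.13 and 0.08 ± 0.13. Whether the differences between the lines are unlike for the 3 genes was not tested.

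GSTL1 (AT5G02780), a lambda-class glutathione transferase of the kind that binds and recycles small oxidised compounds, had 3157, 3199.6 and 3199 normalized counts in ERF115-SRDX, 740.4, 961 and 914 in ERF115OX and 1169.5, 933 and 962 in ERF114OX, against 384, 434 and 411 in WT. ERF115-SRDX exceeded ERF115OX by 1.88 ± 0.10 log2 (SE, adjusted p = 1.16e-08) and ERF114OX by 1.65 ± 0.10 (adjusted p = 3.84e-08; limma). SULTR1;3 (AT1G22150), a high-affinity sulfate transporter of the phloem, averaged 917 ± 41.2 in ERF115-SRDX, 246 ± 63.7 in ERF115OX and 336 ± 22.9 in ERF114OX, against 122 ± 12.7 in WT (SD, n = 3 each). Its ERF115-SRDX libraries were separate from all others, and the differences were 1.92 ± 0.15 and 1.45 ± 0.15 log2 from ERF115OX and ERF114OX (SE, adjusted p = 2.86e-07 and 4.1e-06, limma). The level of 10 phloem and procambium marker genes went the other way: 8 of the 10 were called lower in ERF115-SRDX than in ERF115OX and 8 lower than in ERF114OX. The part of these marker levels in the values of SULTR1;3 was not tested. The SULTR1;3 transcript is 80.0% identical over 74.9% of its length to AT1G78000, so reads may be shared. AT1G78000 averaged 5036 in ERF115-SRDX, 21046 in ERF115OX and 20276 in ERF114OX, against 14992 in WT.

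ADT4 (AT3G44720), an arogenate dehydratase that makes phenylalanine, the precursor of lignin and other phenylpropanoids, was separate in every group. Its normalized counts were 5981, 5947 and 5349 in ERF115-SRDX, 2884, 2812 and 2975 in ERF115OX and 3379.8, 3778 and 3801 in ERF114OX, against 1478, 1478 and 1462 in WT. The 4 groups did not overlap, in the order ERF115-SRDX, ERF114OX, ERF115OX, WT. ERF115-SRDX exceeded ERF115OX by 0.99 ± 0.06 log2 (SE, adjusted p = 2.2e-08) and ERF114OX by 0.66 ± 0.06 (adjusted p = 1.05e-06), and ERF115OX was lower than ERF114OX by 0.34 on the log2 scale (adjusted p = 0.0055; limma).

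3 further members were higher in ERF115-SRDX than in both overexpressors. ACA2 (AT2G28210), an alpha carbonic anhydrase, which interconverts carbon dioxide and bicarbonate, averaged 1684 ± 319 normalized counts in ERF115-SRDX, 559 ± 40.7 in ERF115OX and 668 ± 49.0 in ERF114OX, against 320.1 ± 33.9 in WT (SD, n = 3 each). AT1G69150, a C1-domain protein rich in cysteine and histidine, averaged 336 ± 11.9 in ERF115-SRDX, 142 ± 9.15 in ERF115OX and 109 ± 25.1 in ERF114OX, against 51.2 ± 12.1 in WT (SD, n = 3 each). AT1G03820, an E6-like protein, averaged 612 ± 32.8 in ERF115-SRDX, 378 ± 36.4 in ERF115OX and 467 ± 11.3 in ERF114OX, against 230.2 ± 38.2 in WT (SD, n = 3 each). Their differences from ERF115OX were 1.57 ± 0.13, 1.24 ± 0.19 and 0.70 ± 0.12 log2, and from ERF114OX 1.32 ± 0.13, 1.64 ± 0.19 and 0.39 ± 0.12 (SE), all called by limma. The AT1G03820 call against ERF114OX was lost under both joint omissions of libraries, without ERF114OX 1 and ERF115-SRDX 2 and without ERF115-SRDX 1 and 3, with an adjusted p of at most 0.0861. AT1G69150 is 86.9% identical over 98.9% of its transcript to AT3G43890, which averaged 183 normalized counts in ERF115-SRDX, 109.9 in ERF115OX and 117 in ERF114OX, against 129 in WT, so its reads may be shared between the pair.

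The class III peroxidases, secreted enzymes that act on hydrogen peroxide in the cell wall, gave 2 members with opposite orders in the overexpressors. AT4G36430 had 4565, 6332 and 5743 normalized counts in ERF115-SRDX, 1949, 2398 and 2519 in ERF115OX and 5044, 4397 and 4374 in ERF114OX, against 911, 955 and 868 in WT. ERF115OX was separate from the other lines and lower than ERF114OX by 1.01 on the log2 scale (adjusted p = 0.000432). ERF115-SRDX exceeded ERF115OX by 1.27 ± 0.12 (SE, adjusted p = 1.44e-06) and was not called against ERF114OX, at 0.26 ± 0.12 (adjusted p = 0.0816; limma). AT5G39580 had 3009, 2983 and 2554 normalized counts in ERF115-SRDX, 1812, 1590.1 and 1719 in ERF115OX and 1120.2, 1235 and 1201 in ERF114OX, against 654, 727 and 751 in WT. All 4 groups were separate, with ERF115-SRDX highest, then ERF115OX, ERF114OX and WT. It was the single member called higher in ERF115OX than in ERF114OX, by 0.52 ± 0.08 log2 (SE, adjusted p = 0.00257), and ERF115-SRDX exceeded ERF115OX by 0.74 ± 0.08 (adjusted p = 6.01e-06) and ERF114OX by 1.26 ± 0.08 (adjusted p = 4.3e-08; limma). Of the 63 peroxidase genes tested, leaving out the members, 16 were called higher and 17 lower than WT in ERF115-SRDX, 25 and 5 in ERF115OX, and 22 and 11 in ERF114OX.

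**Figure D5:**
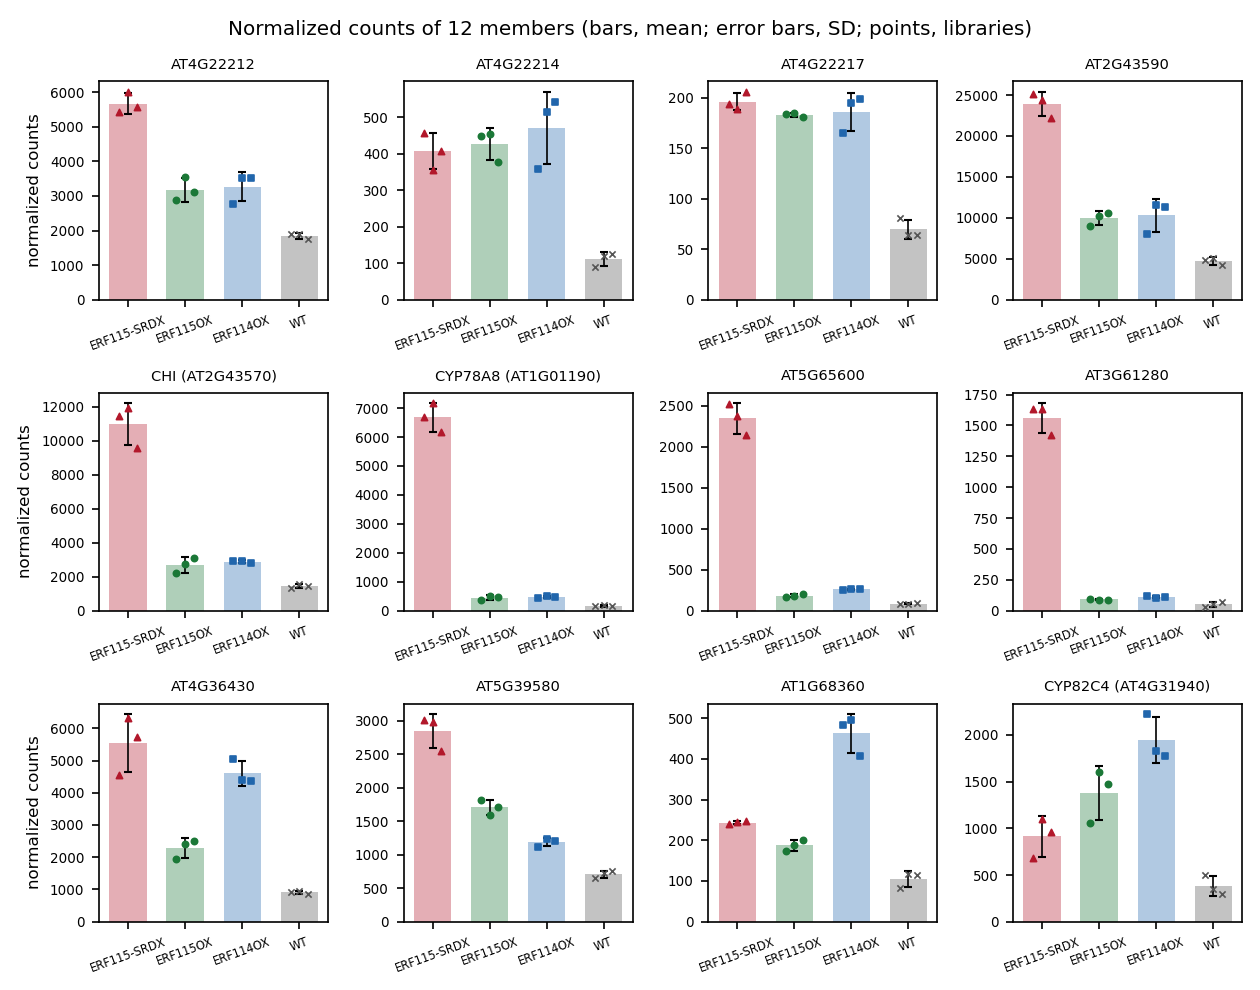
Normalized counts of 12 members in ERF115-SRDX, ERF115OX, ERF114OX and WT, as library values (points), means (bars) and SD (error bars), n = 3 libraries a group, each panel with its own axis from 0. AT4G22214 and AT4G22217 stand at like levels in the 3 lines, CYP78A8, AT5G65600 and AT3G61280 are highest in ERF115-SRDX, and AT1G68360 and CYP82C4 are highest in ERF114OX.

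ERF114OX was the highest line for another group of members. AT1G68360, a C2H2 zinc finger protein, had 239.8, 244 and 246 normalized counts in ERF115-SRDX, 173, 189 and 199 in ERF115OX and 484, 496 and 408 in ERF114OX, against 82.6, 117 and 114 in WT. No 2 groups overlapped. ERF115OX was lower than ERF114OX by 1.3 on the log2 scale (adjusted p = 0.000209), and ERF115-SRDX was lower than ERF114OX by 0.92 (adjusted p = 0.000101; limma). Its call of 0.38 ± 0.14 for ERF115-SRDX minus ERF115OX (SE, adjusted p = 0.0318) was lost when any of 5 single libraries was left out.

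AT2G05510, a glycine-rich protein of the kind found in cell walls, had 871, 892 and 775 normalized counts in ERF115-SRDX, 844, 939 and 906 in ERF115OX and 1917, 1887 and 1694 in ERF114OX, against 397, 529.7 and 369.5 in WT. ERF115OX and ERF115-SRDX overlapped near double the WT level, and ERF114OX stood alone above them. ERF115OX was lower than ERF114OX by 1.03 on the log2 scale (adjusted p = 0.000355) and ERF115-SRDX lower by 1.12 (adjusted p = 4.28e-06), while ERF115-SRDX minus ERF115OX was -0.09 ± 0.12 (SE, adjusted p = 0.557; limma). Its paralog AT2G05440, 77.1% identical over 95.3% of the member's length, had mean normalized counts of 18847 in ERF115-SRDX, 47876 in ERF115OX and 37014 in ERF114OX, against 18524 in WT.

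The noncoding RNA gene AT5G07322 lies 6281 bases from the ERF115 locus, with APC3 and a tRNA gene between them. It had 2231, 2279.6 and 2345 normalized counts in ERF115-SRDX, 1878, 2504 and 2199 in ERF115OX and 2806, 2805 and 2925 in ERF114OX, against 1339, 1299 and 1200.1 in WT. ERF114OX was highest and did not overlap the others. A part of the ERF115 locus or of the transgenes in these values was not tested. ERF115OX was lower than ERF114OX by 0.38 on the log2 scale (adjusted p = 0.019) and ERF115-SRDX lower by 0.32 (adjusted p = 0.00695; limma), and the first call ended without ERF115OX replicate 3 or ERF114OX replicate 2 or 3 and when only the groups compared were fitted (adjusted p at most 0.075), the second without ERF115-SRDX 1 and 3 together (adjusted p = 0.0787). APC3, a mitochondrial carrier gene that is the nearer neighbour, averaged 707 ± 69.8 in ERF115-SRDX, 767 ± 23.2 in ERF115OX and 821 ± 6.21 in ERF114OX, against 785 ± 54.5 in WT (SD, n = 3 each), with no call against WT.

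CYP82C4 (AT4G31940) is the only member from a list of 14 genes of iron uptake; its P450 enzyme hydroxylates the coumarin fraxetin to sideretin, which roots secrete under iron shortage. Its normalized counts were 677, 1096 and 963 in ERF115-SRDX, 1054, 1600.2 and 1474 in ERF115OX and 2225, 1829 and 1776 in ERF114OX, against 499, 350.2 and 301 in WT. ERF115-SRDX was the lowest of the lines, and its library at 677 came nearest to the highest WT library at 499. ERF115-SRDX was lower than ERF114OX by 1.11 on the log2 scale (adjusted p = 0.000764) and lower than ERF115OX by 0.60 (adjusted p = 0.0307; limma); the second call was lost without ERF115OX replicate 2 or 3 or without ERF115-SRDX replicate 1, and the first was kept in each of these fits. The transcript is 91.5% identical over 93.2% of its length to that of CYP82C2, which averaged 465 normalized counts in ERF115-SRDX, 219 in ERF115OX and 69.4 in ERF114OX, against 39.1 in WT, so reads may be shared, though the 2 genes had opposite orders of the lines.

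The other 12 iron genes tested moved in both directions. Against WT, 4 were called higher and 1 lower in ERF115-SRDX, 3 and 3 in ERF115OX, and 3 and 6 in ERF114OX. IRT1, the main iron transporter of the root surface, averaged 3386 ± 499 in ERF115-SRDX, 6397 ± 1362 in ERF115OX and 6983 ± 1164 in ERF114OX, against 2686 ± 305 in WT (SD, n = 3 each). It was called higher than WT in ERF115OX, by 1.23 log2 (adjusted p = 0.000251), and in ERF114OX, by 1.37 (adjusted p = 9.88e-05), and not in ERF115-SRDX, at 0.33 (adjusted p = 0.117; limma). FRO2, the ferric reductase that works with IRT1, was called higher in all 3 lines, by 0.40 log2 in ERF115-SRDX, 0.90 in ERF115OX and 1.34 in ERF114OX. F6'H1 (AT3G13610), the enzyme that starts the synthesis of these coumarins, averaged 22133 ± 2699 in ERF115-SRDX, 2201 ± 198 in ERF115OX and 2042 ± 128 in ERF114OX, against 2853 ± 245 in WT (SD, n = 3 each). It was called higher than WT in ERF115-SRDX, by 2.95 log2 (adjusted p = 2.08e-10, limma), and lower in ERF115OX and ERF114OX, where it fell by 0.37 and 0.48 on the log2 scale. S8H (AT3G12900), also of this list, was called higher in all 3 lines, by 4.41 log2 in ERF115-SRDX, 3.14 in ERF115OX and 2.83 in ERF114OX. Its WT libraries held 0, 17.6 and 7.97 normalized counts, so it was under the WT minimum and not a member.

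2 MATE efflux carriers and a metal transporter were also members; with SULTR1;3 they made 4 members among 491 genes of other transporter kinds with the WT minimum. MATE carriers move organic compounds out of the cytoplasm. AT4G21903 averaged 527 ± 71.2 in ERF115-SRDX, 364 ± 66.8 in ERF115OX and 429 ± 25.5 in ERF114OX, against 151 ± 33.6 in WT (SD, n = 3 each), and its call for ERF115-SRDX minus ERF115OX, 0.54 ± 0.17 log2 (SE, adjusted p = 0.0174, limma), was lost without ERF115OX replicate 1 or ERF115-SRDX replicate 1 or 2. Its transcript is 85.6% identical over 77.3% of its length to AT4G21910, so reads may be shared. AT4G21910 averaged 3060 in ERF115-SRDX, 4214 in ERF115OX and 3974 in ERF114OX, against 3725 in WT. AT1G33090 averaged 268 ± 9.81 in ERF115-SRDX, 329 ± 17.0 in ERF115OX and 331 ± 39.8 in ERF114OX, against 153 ± 29.7 in WT (SD, n = 3 each). It is 89.9% identical over 90.1% of its length to AT1G33100, which averaged 40.5 in ERF115-SRDX, 210.0 in ERF115OX and 191 in ERF114OX, against 144 in WT. ZIP9 (AT4G33020), of the family that imports zinc and related metals, averaged 195 ± 10.3 in ERF115-SRDX, 256 ± 40.7 in ERF115OX and 177 ± 26.7 in ERF114OX, against 98.6 ± 13.3 in WT (SD, n = 3 each). For ZIP9, ERF115OX minus ERF114OX was 0.53 ± 0.15 log2 (SE, adjusted p = 0.061), and ERF115-SRDX minus ERF115OX was -0.38 ± 0.15 (adjusted p = 0.0553; limma), both short of a call.

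Altogether 12 members were called in none of the comparisons between the lines. They are AT4G22214, AT4G22217, AT1G33090, ZIP9, AT2G45360, AT2G40130, WIP3, AT2G38790, AT3G48180, AT5G25450, UGT73D1 and TOM20-1. The share of all genes tested that were called in none of these comparisons was not computed, so nothing is read from the number 12. A missed call does not show equal levels: for AT2G45360, a protein of the DUF1442 family, the SE of each comparison was 0.15, and the differences were -0.06, -0.01 and -0.07 log2 for ERF115OX minus ERF114OX, ERF115-SRDX minus ERF115OX and ERF115-SRDX minus ERF114OX. Its normalized counts were 224, 190.1 and 211 in ERF115-SRDX, 200.5, 198 and 231 in ERF115OX and 214, 219 and 221 in ERF114OX, against 73.9, 76.1 and 113 in WT. The 3 lines overlapped at 2.38 to 2.49 times WT. AT2G45360 overlaps AT2G09605, a noncoding RNA gene of the opposite strand with a WT mean of 32.8. AT2G09605 was also called higher than WT, by 1.62 log2 in ERF115-SRDX, 1.53 in ERF115OX and 1.60 in ERF114OX (limma). Whether reads are shared between the 2 genes was not tested.

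WIP3 (AT1G08290), a zinc finger protein of the WIP family, averaged 156 ± 20.5 in ERF115-SRDX, 167 ± 9.21 in ERF115OX and 150.4 ± 5.46 in ERF114OX, against 78.0 ± 20.9 in WT (SD, n = 3 each). AT2G40130, of the Double Clp-N family to which the SMXL repressors of strigolactone signalling belong, was the member with the lowest WT level, also per kilobase, at 15.6 normalized counts per kilobase. It averaged 111 ± 9.80 in ERF115-SRDX, 106 ± 12.4 in ERF115OX and 139 ± 6.15 in ERF114OX, against 50.8 ± 12.1 in WT (SD, n = 3 each). bZIP8 (AT1G68880), a leucine-zipper factor, was called in one comparison: it averaged 588 ± 41.1 in ERF115-SRDX, 424 ± 19.8 in ERF115OX and 520.3 ± 118 in ERF114OX, against 222 ± 32.3 in WT (SD, n = 3 each), and ERF115-SRDX minus ERF115OX was 0.47 ± 0.15 log2 (SE, adjusted p = 0.0151, limma), a call lost without ERF115-SRDX replicate 3.

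The remaining members without a call had a smallest log2 difference from WT between 0.71 and 0.82. AT2G38790, an uncharacterized protein, averaged 575 ± 55.0 in ERF115-SRDX, 597 ± 55.3 in ERF115OX and 545 ± 33.0 in ERF114OX, against 308 ± 57.0 in WT (SD, n = 3 each). AT3G48180, annotated as a phosphatidyltransferase of glycerophospholipid synthesis, averaged 337 ± 53.9 in ERF115-SRDX, 351 ± 69.7 in ERF115OX and 338 ± 32.9 in ERF114OX, against 203 ± 20.8 in WT (SD, n = 3 each). These genes and AT5G25450, a subunit of a respiratory ubiquinol oxidase by its annotation with 1.65 to 1.87 times WT, overlapped between the 3 lines. UGT73D1 (AT3G53150), a glucosyltransferase of small molecules, averaged 867 ± 66.7 in ERF115-SRDX, 866 ± 66.2 in ERF115OX and 842 ± 62.0 in ERF114OX, against 511 ± 105 in WT (SD, n = 3 each).

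The members just inside the rule were TOM20-1, with a smallest difference of 0.71, AT1G03820 with 0.71 and UGT73D1 with 0.72. Just outside it were the noncoding RNA gene AT3G04685 with 0.69, the glycosyltransferase gene AT2G16890 with 0.68 and the noncoding RNA gene AT1G11185 with 0.67. Of the genes that the WT minimum alone left out, the 3 nearest to it were AT2G16385, AT5G18910 and CYP82C2. Their WT means were 49.7, 41.9 and 39.1. TOM20-1 dropped out of the rule without any one of 7 single libraries, AT3G48180 without any one of 4 and UGT73D1 without any one of 3. AT1G03820, AT1G69150, AT3G61280 and AT5G25450 each dropped out without either of 2 libraries. For AT4G22212, AT3G18250, AT5G39580, AT1G68360, AT2G40130 and AT5G07322 there was 1 such library. Membership of all these genes thus depends on single libraries. AT1G03820 and AT5G39580 were also lost under TMM scaling, and AT1G69150 and AT2G40130 under quantile normalization.

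The phytosulfokine genes, named by earlier work on these factors, had no member among them. PSK5 averaged 143 ± 1.53 normalized counts in ERF115-SRDX, 1333 ± 83.6 in ERF115OX and 1097 ± 66.8 in ERF114OX, against 289.9 ± 14.6 in WT (SD, n = 3 each). In ERF115-SRDX it fell by 1.01 on the log2 scale against WT (adjusted p = 2.6e-07), whereas the 2 overexpressors were higher than WT, ERF115OX by 2.2 (adjusted p = 8.74e-09) and ERF114OX by 1.92 (adjusted p = 4.96e-08; limma). PSK1 had the same signs, at -1.57 in ERF115-SRDX, 0.90 in ERF115OX and 0.84 in ERF114OX. Over the 7 phytosulfokine genes tested, 3 were called higher and 3 lower than WT in ERF115-SRDX, 4 and 0 in ERF115OX, and 4 and 1 in ERF114OX. PSK4 was called higher in all 3 lines, by 1.12 log2 in ERF115-SRDX, 0.94 in ERF115OX and 0.41 in ERF114OX, the last under the threshold of 0.7.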

How the data were processed

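The authors trimmed reads with Trimmomatic 0.39, aligned them with HISAT2 2.2.1 and SAMtools 1.11, counted them with featureCounts of Subread 2.0.1 and normalized with DESeq2, per the submitters' processing notes, which name the tools without their order or settings. For the genome build, the strand setting and reads with several matches, nothing is stated (not given in the sources used here). The deposited table holds counts divided by library size factors, a signal that is comparable between libraries, and 99.9997% of the 316348 values above 0 were whole reads within a relative tolerance of 1e-06 once the value of 1 read was found.

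Values were used as deposited. Genes with a mean of at least 10 over the 12 libraries (23375 genes) were tested with limma 3.58.1 (R 4.3.3), moderated with a trend, on log2(normalized count + 1), with all 4 groups in 1 fit, two-sided, and Benjamini-Hochberg adjustment over all of them; all 33 members passed that filter. Fold changes of low genes are understated on this scale. On recovered reads, edgeR 4.0.16 called 1608 genes for ERF115OX minus ERF114OX, 12996 for ERF115-SRDX minus ERF115OX and 12833 for ERF115-SRDX minus ERF114OX, against 1613, 13097 and 13074 by limma. Other settings were other pseudocounts, filters and scalings, DESeq2 1.42.0, a replicate block and leaving out libraries. Transcripts were compared with blastn 2.17.0 (e-value at most 1e-10). The printed SD and SE come from the spread between libraries and not from counting error alone.

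The members and the gene lists were chosen with earlier results of these data known. Named genes were the members with the largest smallest difference from WT, the largest and smallest differences between lines, the first of each class with at least 4 members, those nearest the threshold, the most abundant, any member of a list, and ERF115, ERF114 and the phytosulfokine genes; the remaining members and the neighbours of gene clusters were added after their values were seen. The upstream sequence of 1 clustered member is not reported here.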

Additional observations from a re-analysis of the deposited data

Results flagged for a closer look

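The lines differed from each other, by the limma test of the difference itself with Benjamini-Hochberg adjustment, for these members among others. The values listed are the ends of rankings and not all members called. For ERF115-SRDX, members called against both overexpressors were ranked by the mean of their differences from the overexpressors. SULTR1;3, for one, was called at 1.92 against ERF115OX and is not listed. For ERF115-SRDX minus ERF115OX the log2 difference was 4.08 for AT3G61280, 3.90 for CYP78A8 (AT1G01190), 3.71 for AT3G18250, 3.69 for AT5G65600, 2.03 for CHI (AT2G43570) and 1.88 for GSTL1 (AT5G02780). It was 0.99 for ADT4 (AT3G44720), 0.84 for AT4G22212, 0.74 for AT5G39580, 0.70 for AT1G03820 and 0.38 for AT1G68360, and -0.60 for CYP82C4 (AT4G31940). For ERF115OX minus ERF114OX it was 0.52 for AT5G39580, -0.53 for AT5G65600, -1.01 for AT4G36430, -1.03 for AT2G05510 and -1.30 for AT1G68360. In each of these the libraries of a group numbered 3, too few to look for single values far from the rest.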

How the results depend on the processing

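The number of members depended on the rule itself: quantile normalization gave 53 genes, a threshold of 0.5 gave 97 and a threshold of 1 gave 13. It was 29 to 43 when a single library was left out. Counts of members called also with an absolute log2 difference of at least 1 were 3 for ERF115OX minus ERF114OX (against 7) and 11 for ERF115-SRDX minus ERF115OX (against 19). With a library left out, the counts by adjusted p under 0.05 alone were 6 to 8 for ERF115OX minus ERF114OX. They were 16 to 21 for ERF115-SRDX minus ERF115OX and 18 to 20 for ERF115-SRDX minus ERF114OX. Same-numbered libraries did not deviate together (correlations -0.28 to 0.44 over 18 pairs, 4 of them over 0.1, and 8 of 36 highest with the own number), and with the replicate number as a block the counts were 7, 19 and 18, as without it. Of 1100 values for the 44 called gene and comparison pairs under other settings, 1056 kept direction and call, 44 kept the direction and lost the call, and none changed sign. The lost calls touched 17 pairs. All 17 lost the call when an absolute log2 difference of at least 1 was also asked of the main fit, which the size of the difference fixes. Some, such as those of ADT4, AT4G22212 and AT5G39580, were lost under that setting only. For the losses under other settings the cause was not tested. The settings chosen after seeing the data were 2 joint omissions of libraries. Omitting ERF114OX 1 and ERF115-SRDX 2 gave 33 members. Omitting ERF115-SRDX 1 and 3 left that line with 1 library. TMM and quantile normalization moved the median of all genes by at most 0.073 log2. DESeq2 called 2380 genes for ERF115OX minus ERF114OX, against 1613 by limma. With 3 libraries a group, differences of weakly expressed members such as TOM20-1 are limited by the spread between libraries.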
